A study of Arabidopsis thaliana with 6 samples.

Results

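The genes described here are encoded in the plastid genome of Arabidopsis thaliana and make parts of the photosynthetic machinery: photosystem I (psa genes), photosystem II (psb), the cytochrome b6f complex (pet), the plastid ATP synthase (atp), the NADH dehydrogenase-like or NDH complex (ndh) and the large subunit of Rubisco (rbcL). Members were chosen by their plastid locus and symbol, with earlier results of these data known. Each had to have a row of the array table that names it alone. This gave 39 genes of the 16548 tested: 5 psa, 13 psb, 6 pet, 4 atp and 10 ndh genes, and rbcL. No member had a second row, so the clause of the rule that takes the row with the highest mean decided none of them. The plastid genome holds 44 such symbols. The remaining genes, psbC, psbD, atpB, atpE and ndhB, have rows that carry 2 gene entries and are not members.

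RNA came from roots of Col-0 wild-type plants at 8 weeks of age, raised hydroponically at short day length on a medium in which chloride stood in for sulfate. Sodium sulfate at 300 µM was given back to the sulfate group and sodium thiosulfate at 150 µM to the thiosulfate group, with 3 arrays each. Thiosulfate carries a pair of sulfur atoms per ion, so both groups were offered the same amount of sulfur. All plants were of 1 genotype. The 3 arrays of a group are titled biological replicates, but whether each had its own culture is not stated, and the p-values cover no spread beyond that seen among them.

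Plastids keep a small genome of their own. Most of its photosynthesis genes are copied by a polymerase of bacterial type, whose core is plastid-encoded and whose sigma factors come from the nucleus, while phage-type polymerases from the nucleus copy others, and the genes are largely read as operons in long transcripts that are cut, spliced and edited afterwards. Root plastids are mostly colourless and do not photosynthesise, yet they carry the same genome as leaf chloroplasts. The photosystems, cytochrome b6f and the ATP synthase form the linear chain that turns light into reducing power and ATP. The NDH complex returns electrons from ferredoxin to the plastoquinone pool around photosystem I, and Rubisco fixes carbon dioxide.

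The values are log2 signals after normalization, and a difference is always thiosulfate minus sulfate on that log2 scale. Over the genes tested the array medians overlapped, at 2.34 to 2.39 in sulfate and 2.358 to 2.394 in thiosulfate. Taken over every row instead, those of thiosulfate were higher (2.408 to 2.484, against 2.348 to 2.383). For the members 1 array stood apart most: sulfate replicate 3 gave the lowest of the 6 values for 31 of 39, against 16.8% of all genes tested. Thiosulfate replicate 1 gave the highest for 18, against 18.5% of all genes tested. Over all genes tested it was the lowest array for 23.6%. Of the 36 members with a higher mean in thiosulfate, 15 had a difference smaller by over 1.5 times, or turned, without sulfate replicate 3. Of these 15, 4 turned below 0 (psaC, psbA, ndhE and ndhI), and the values without that array stand beside the genes below. The number of arrays limits the precision.

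Most plastid photosynthesis genes had slightly higher mean signals in thiosulfate roots, but no single one passed the correction over all genes. The mean was higher in thiosulfate for 36 of 39 members and lower for 3 (psbN, ndhD and ndhF), while 47.1% of all genes tested had a higher mean. The median difference over the members was 0.28, or 1.22-fold, with a range from -0.06 to 0.46, beside a median of -0.02 over all genes tested. By limma, 0 of 39 had an adjusted p under 0.05, a threshold that 0.0121% of all genes tested passed, and the smallest adjusted p of a member was 0.41 (atpA). The 95% interval of every member excluded a 2-fold difference in either direction. The same held for 15341 of the 16548 genes tested.

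At an unadjusted limma p under 0.05 stood 10 members, all higher in thiosulfate: psbB, psbE, psbH, psbJ, psbK, petB, atpA, atpF, ndhJ and rbcL. Of all genes tested, 10.0% met this threshold, 5.39% on the higher and 4.64% on the lower side. After a further quantile normalization those background shares were 10.2% and 3.84%, the count of members was 1, and 33 of 39 had a higher mean. After centring each array on its median over all rows they were 11.3% and 3.54%, with 0 members and again 33 of 39 higher. The count was also 0 without sulfate replicate 3, where 32 of 39 had a higher mean and the median difference was 0.21, and 0 without thiosulfate replicate 1, where 37 had a higher mean and the median was 0.25. In these fits 7.90% and 7.17% of all genes met the threshold. Without thiosulfate replicate 3 the count was 4, against 10.1% of all genes, 5.67% on the higher side. With an intensity trend and a robust prior it was 22, against 10.2% of all genes. In 20 of 39 members every thiosulfate array lay above every sulfate array, against 7.11% of all genes tested, and in 0 every thiosulfate array lay below, against 7.57%. Without sulfate replicate 3 this separation was seen in 20 of 39 members, against 10.9% of genes. Genes with brighter signals lay higher in thiosulfate more often than genes at large: among the brighter 8274 of the genes tested, which hold all members, 58.3% had a higher mean, 8.69% were higher at an unadjusted p under 0.05 and 11.1% were separated upwards, with a median difference of 0.05. The part of signal level in the members' result was not tested. Many members lie on shared transcripts, so these counts are not of independent genes. The set was also chosen with earlier results of these data known, so its counts beside the background are a description only. In RNA from whole roots, more plastids or more of a cell type and more RNA per plastid cannot be told apart.

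**Figure D1:**
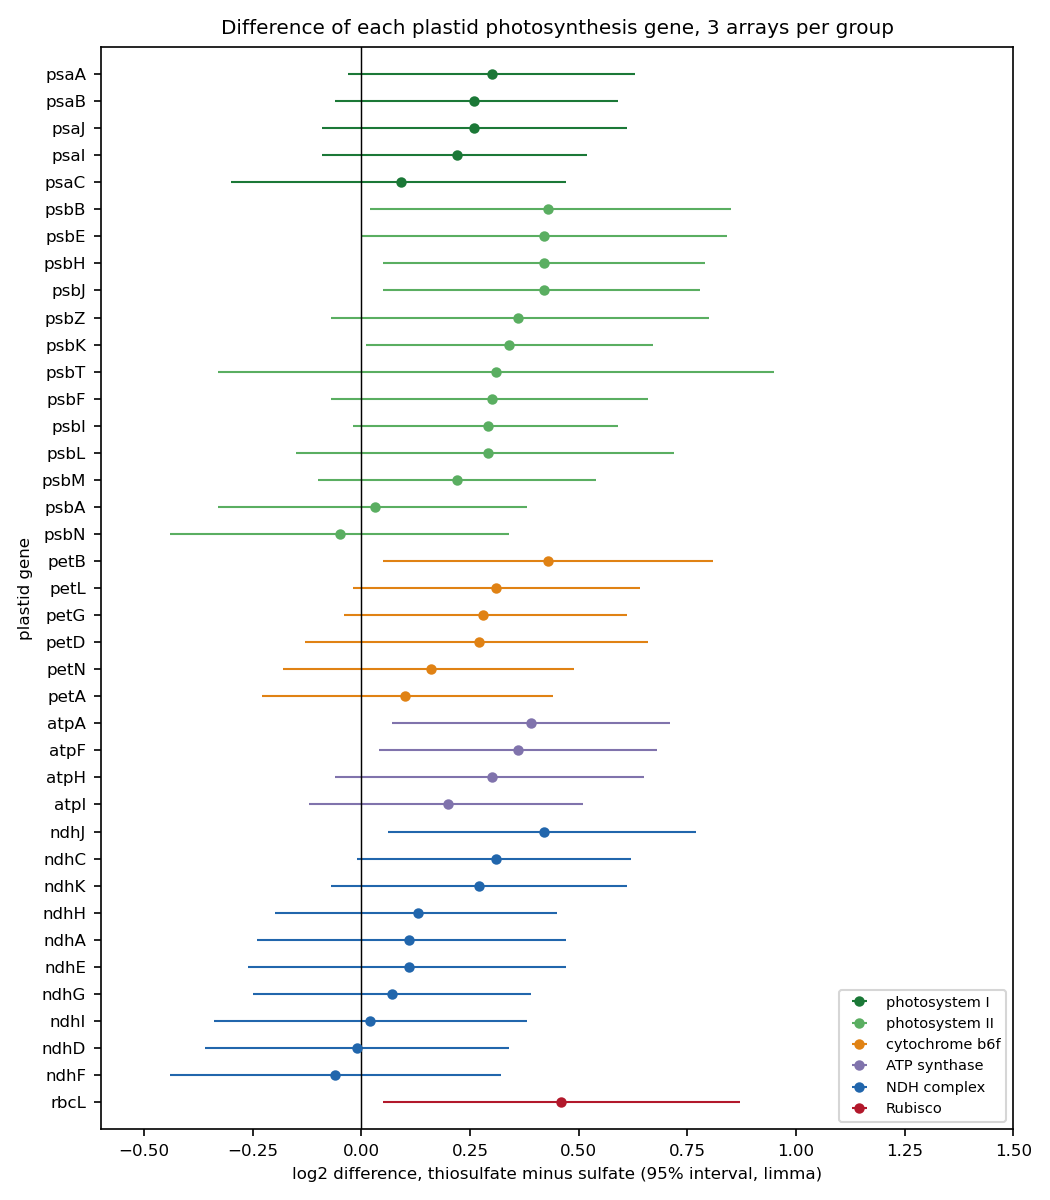
Log2 difference (thiosulfate minus sulfate, x axis) of each of the 39 plastid genes (y axis), with the 95% interval from limma, 3 arrays per group, coloured by complex. Points lie between -0.06 and 0.46, and 36 of 39 are above 0; 10 of the 39 intervals exclude 0.

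Photosystem II splits water and passes the electrons to plastoquinone. It had 13 members, of which 12 had a higher mean in thiosulfate and 1 a lower one, with a median difference of 0.31. PsbB is the chlorophyll-binding core antenna protein next to the reaction centre. Its gene psbB read 8.32, 8.39 and 7.86 on the sulfate arrays and 8.77, 8.42 and 8.69 on the thiosulfate arrays, a difference of 0.43 (SE 0.19, 95% interval 0.02 to 0.85, limma adjusted p = 0.48). The groups were separated, though by little, and sulfate replicate 3 was the lowest array. Without that array the difference for psbB was 0.27. psbH, for a small phosphoprotein of the core, lies in the same operon and read 7.41, 7.43 and 6.99 against 7.71, 7.61 and 7.78, a difference of 0.42 (SE 0.16, limma adjusted p = 0.43), or 0.28 without sulfate replicate 3. Here too every thiosulfate array was the higher, and the sulfate spread came from replicate 3.

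psbE and psbF encode the alpha and beta chains of the cytochrome that belongs to photosystem II itself, and lie beside psbL and psbJ in 1 operon. psbE read 9.42, 9.45 and 8.88 in sulfate and 9.75, 9.52 and 9.74 in thiosulfate, a difference of 0.42 (SE 0.19, limma adjusted p = 0.50) that was 0.24 without sulfate replicate 3. psbF read 10.88, 11.13 and 10.73 against 11.19, 11.08 and 11.36, a difference of 0.30 (SE 0.16, limma adjusted p = 0.58). The groups were separated for psbE and overlapped for psbF, where sulfate replicate 2 lay above thiosulfate replicate 2. Over the operon's 4 members the median difference was 0.36, with a range from 0.29 to 0.42.

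psbK and psbI, neighbours that encode small membrane subunits, were separated between the groups on all arrays. psbK read 8.39, 8.32 and 8.10 in sulfate against 8.65, 8.68 and 8.51 in thiosulfate (difference 0.34, SE 0.15, limma adjusted p = 0.48). psbI, with the tighter groups of the pair, read 8.72, 8.63 and 8.61 against 9.02, 8.89 and 8.91 (difference 0.29, SE 0.14, limma adjusted p = 0.52). Without sulfate replicate 3 their differences were 0.26 and 0.27, so that array carried little of the value for psbI.

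The photosystem II members at the low end were psbN and psbA. psbN lies on the strand opposite to its neighbours psbT and psbH and is known for a part in assembling the photosystem. It read 8.26, 8.41 and 8.23 in sulfate and 7.92, 8.39 and 8.42 in thiosulfate, a difference of -0.05 (95% interval -0.44 to 0.34), which was 0.11 without thiosulfate replicate 1. The groups overlapped, with thiosulfate replicate 1 the lowest array. psbA, singled out after its values were seen because it encodes the reaction centre protein that is replaced fastest in light, read 10.69, 10.79 and 10.43 against 10.63, 10.55 and 10.81, with overlapping groups. Its difference of 0.03 (95% interval -0.33 to 0.38, limma adjusted p = 0.97) was -0.043 after median centring and -0.077 without sulfate replicate 3. The other small-subunit genes psbJ, psbL, psbM, psbT and psbZ had differences from 0.22 to 0.42. Of them psbT read 3.22 to 4.11 in sulfate and 3.53 to 4.46 in thiosulfate, and its interval was wide, from -0.33 to 0.95.

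**Figure D2:**
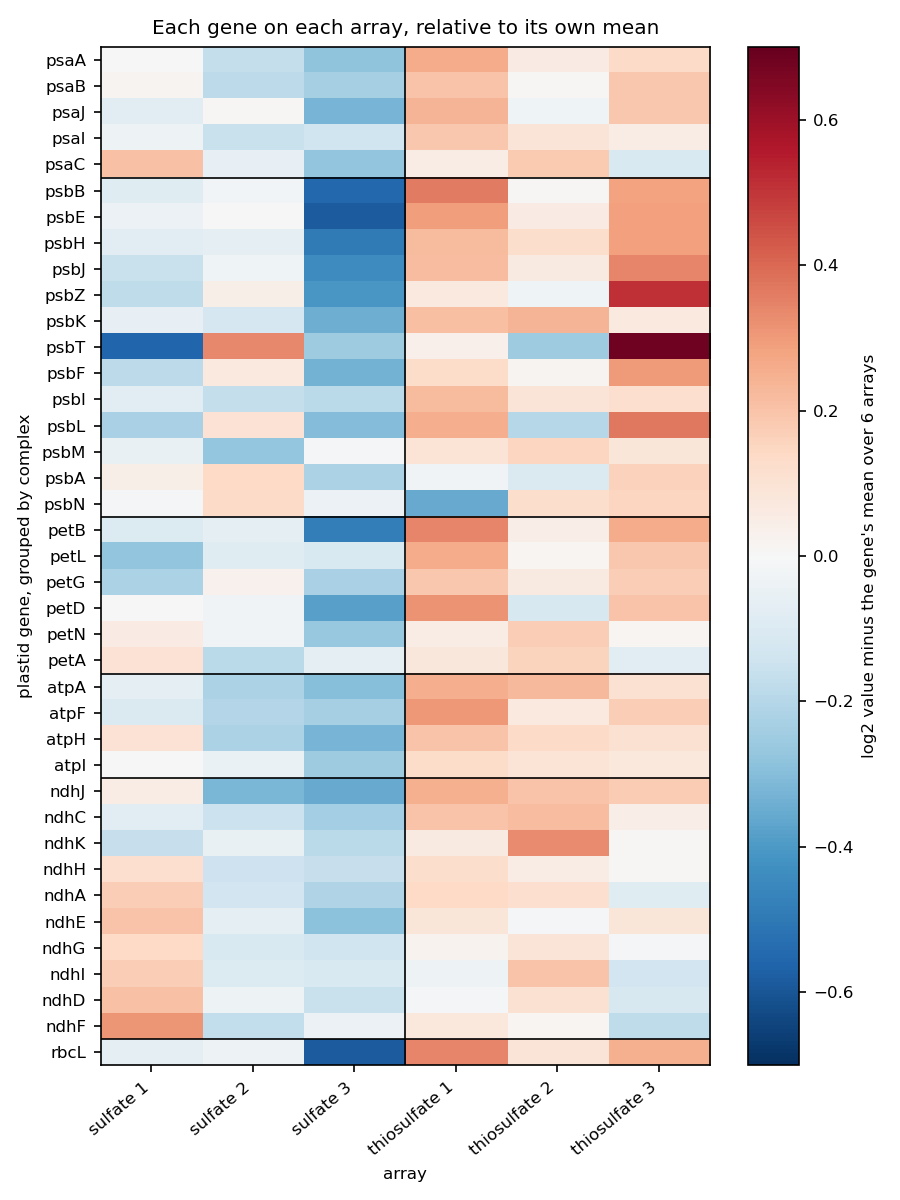
Each of the 39 plastid genes (rows, grouped by complex) on each of the 6 arrays (columns): colour is the log2 value minus that gene's mean over the 6 arrays. The column of sulfate replicate 3 holds the lowest value for 31 of 39 genes, and sulfate replicate 1 is the highest array for 5 of the 10 ndh genes.

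Photosystem I drives electrons from plastocyanin to ferredoxin. All 5 members had a higher mean in thiosulfate, 0 with an unadjusted p under 0.05, and the median difference was 0.26. psaA and psaB encode the paired large proteins of the reaction centre. psaA read 8.84, 8.68 and 8.56 in sulfate and 9.10, 8.90 and 8.97 in thiosulfate, a difference of 0.30 (SE 0.15, limma adjusted p = 0.53), with separate groups. psaB, downstream on the same transcript, read 9.75, 9.56 and 9.50 against 9.94, 9.75 and 9.93 (difference 0.26, SE 0.15, limma adjusted p = 0.59). For psaB the groups just touched, at sulfate replicate 1 and thiosulfate replicate 2. The small membrane subunits psaI and psaJ had differences of 0.22 (SE 0.14) and 0.26 (SE 0.16). psaI was separated between the groups, at 9.03 to 9.15 in sulfate and 9.24 to 9.37 in thiosulfate, and psaJ was not, at 8.48 to 8.81 and 8.78 to 9.04. Without sulfate replicate 3 the difference for psaJ was 0.17.

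psaC, for the iron-sulfur protein that hands electrons to ferredoxin, had the smallest difference of the photosystem I genes. It read 9.58, 9.31 and 9.09 in sulfate and 9.42, 9.55 and 9.26 in thiosulfate, a difference of 0.09 (95% interval -0.30 to 0.47), which was -0.022 after a further quantile normalization and -0.033 without sulfate replicate 3. The groups overlapped, and sulfate replicate 1 was the highest of all arrays. psaC lies away from the other psa genes, inside an operon of ndh genes, and its array pattern is given with theirs.

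The cytochrome b6f complex links the photosystems and pumps protons. All 6 members had a higher mean in thiosulfate, 3 with separate groups, and the median difference was 0.27. petB, for the cytochrome b6 protein, read 9.89, 9.92 and 9.50 in sulfate and 10.32, 10.03 and 10.24 in thiosulfate, a difference of 0.43 (SE 0.17, limma adjusted p = 0.44) that was 0.30 without sulfate replicate 3. petD, for subunit IV, follows petB in the operon that begins with psbB. It read 9.40, 9.36 and 9.01 against 9.70, 9.28 and 9.59 (difference 0.27, SE 0.17, limma adjusted p = 0.66), and thiosulfate replicate 2 lay among the sulfate arrays. Without sulfate replicate 3 the difference for petD was 0.14. The 5 members of that operon, psbB, psbT, psbH, petB and petD, had a median difference of 0.42 and a range from 0.27 to 0.43.

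petL and petG encode small membrane subunits and share a transcript with psaJ. petL read 7.50, 7.69 and 7.67 in sulfate and 8.03, 7.79 and 7.96 in thiosulfate, and petG 9.38, 9.63 and 9.38 against 9.79, 9.67 and 9.77. Both were separated between the groups, with differences of 0.31 and 0.28 (limma adjusted p = 0.52 and 0.56), and sulfate replicate 1 was the lowest array of petL and level with sulfate replicate 3 in petG. petN, another small subunit, had a difference of 0.16 (95% interval -0.18 to 0.49), or 0.06 without sulfate replicate 3. petA, for cytochrome f, had 0.10 (-0.23 to 0.44), with overlapping groups at 9.55 to 9.84 in sulfate and 9.66 to 9.89 in thiosulfate.

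The plastid ATP synthase makes ATP from the proton gradient. Its 4 members lie in 1 operon, atpI, atpH, atpF and atpA, and in each of them every thiosulfate array lay above every sulfate array. The median difference was 0.33, and 2 of 4 had an unadjusted limma p under 0.05. atpA, for the alpha subunit of the catalytic head, read 8.83, 8.68 and 8.60 in sulfate and 9.16, 9.13 and 9.01 in thiosulfate, a difference of 0.39 (SE 0.14, 95% interval 0.07 to 0.71, limma adjusted p = 0.41), or 0.34 without sulfate replicate 3. atpF, for a stalk subunit, read 9.61, 9.51 and 9.48 against 10.01, 9.78 and 9.88 (difference 0.36, SE 0.14, limma adjusted p = 0.44). For both genes every thiosulfate array was the higher, and sulfate replicate 3 stood out less than for psbB or psbE.

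atpH, for the subunit of the membrane ring, read 10.21, 9.89 and 9.78 in sulfate against 10.31, 10.24 and 10.21 in thiosulfate (difference 0.30, SE 0.16, limma adjusted p = 0.57). The separation was narrow, sulfate replicate 1 lying next to thiosulfate replicate 3. atpI, for the membrane subunit beside that ring, read 8.87, 8.83 and 8.63 against 9.00, 8.97 and 8.95, a difference of 0.20 (SE 0.14, limma adjusted p = 0.68), which was 0.12 without sulfate replicate 3.

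rbcL, the single plastid gene of Rubisco, had the largest difference of all members. It read 9.23, 9.26 and 8.72 in sulfate and 9.64, 9.39 and 9.55 in thiosulfate, a difference of 0.46 or 1.37-fold (SE 0.18, 95% interval 0.05 to 0.87, limma adjusted p = 0.44). Every thiosulfate array was the higher, and sulfate replicate 3 lay far below the other 5 arrays. The difference was 0.28 without that array.

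The NDH complex had the smallest median difference of the complexes, 0.11 over 10 members, of which 8 had a higher mean and 2 a lower one. These values moved with the setting: the median was 0.02 after a further quantile normalization, 0.04 after median centring and 0.03 without sulfate replicate 3, each with 6 higher and 4 lower, and 0.22 without sulfate replicate 1, with 10 higher. ndhC, ndhK and ndhJ form a short operon: ndhC encodes a membrane subunit, ndhK and ndhJ subunits of the arm that faces the stroma. ndhJ read 7.03, 6.66 and 6.63 in sulfate and 7.23, 7.18 and 7.16 in thiosulfate (difference 0.42, SE 0.16, 95% interval 0.06 to 0.77, limma adjusted p = 0.42). ndhC read 7.56, 7.48 and 7.39 against 7.83, 7.85 and 7.67 (difference 0.31, SE 0.14, limma adjusted p = 0.51), and ndhK 7.06, 7.17 and 7.03 against 7.28, 7.55 and 7.23 (difference 0.27, SE 0.15, limma adjusted p = 0.59). All 3 were separated between the groups on every array.

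The 6 ndh genes of the long operon, ndhH, ndhA, ndhI, ndhG, ndhE and ndhD, which psaC shares, had differences from -0.01 to 0.13. In all 7 members of this operon the groups overlapped, and the median difference was 0.09. The 4 ndh members outside this operon had a median of 0.29, with a range from -0.06 to 0.42. ndhA, for a core membrane subunit, read 9.42, 9.12 and 9.04 in sulfate and 9.39, 9.37 and 9.16 in thiosulfate (difference 0.11, 95% interval -0.24 to 0.47). ndhD, for a proton-pumping membrane subunit, read 9.39, 9.15 and 9.02 against 9.17, 9.29 and 9.07 (difference -0.01, 95% interval -0.36 to 0.34). In both, sulfate replicate 1 was the highest array, so the 3 sulfate arrays spanned the thiosulfate values. Without sulfate replicate 3 the differences were 0.04 for ndhA, 0.08 for ndhH, 0.02 for ndhG, -0.01 for ndhE and -0.03 for ndhI. ndhF, another membrane subunit, is not in that operon but lies near it on the genome. It read 7.01, 6.53 and 6.66 in sulfate and 6.78, 6.72 and 6.53 in thiosulfate, a difference of -0.06 (95% interval -0.44 to 0.32) with overlapping groups. Without sulfate replicate 1 the differences were 0.092 for ndhD and 0.079 for ndhF. ndhG and ndhI, whose differences were 0.07 and 0.02, turned to -0.039 and -0.036 after a further quantile normalization.

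**Figure D3:**
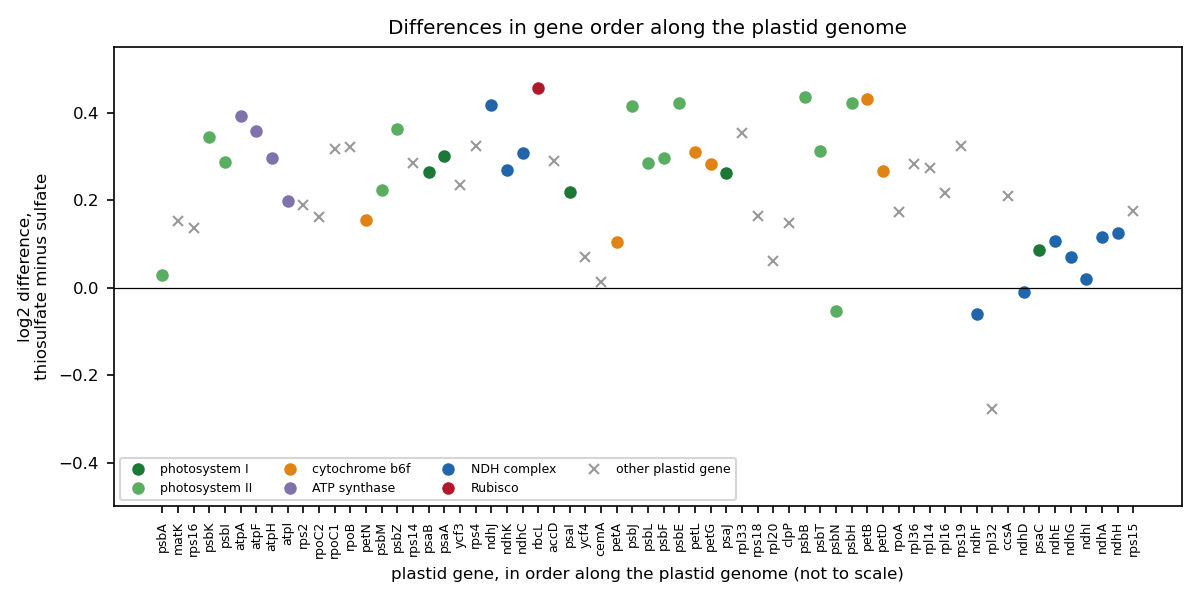
Log2 difference (thiosulfate minus sulfate, y axis) of the 63 plastid-encoded genes tested, in their order along the plastid genome (x axis, not to scale); crosses are plastid genes outside the photosynthesis and NDH set. From ndhF to ndhH the ndh genes and psaC lie between -0.06 and 0.13, with rpl32 (-0.28) and ccsA (0.21) among them. The stretches psbK to atpI and psbB to petD, other than psbN, lie between 0.20 and 0.43. Low values elsewhere include psbA (0.028), rpl20 (0.061) and the neighbours ycf4, cemA and petA (0.069, 0.012 and 0.105).

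Set side by side, the median differences were 0.33 for the ATP synthase, 0.31 for photosystem II, 0.27 for cytochrome b6f, 0.26 for photosystem I and 0.11 for NDH. The 4 ndh members outside the long operon had a median of 0.29, and the 7 members of that operon, psaC among them, 0.09. With each gene taken relative to its own mean over the 6 arrays, the complex median of the ATP synthase was -0.04, -0.21 and -0.27 on sulfate arrays 1 to 3 and 0.23, 0.12 and 0.11 on thiosulfate arrays 1 to 3. For photosystem II it was -0.08, -0.01 and -0.33 against 0.21, 0.06 and 0.28. For NDH it was 0.15, -0.12 and -0.18 against 0.08, 0.11 and 0.00. The groups were separate for photosystems I and II, cytochrome b6f and the ATP synthase, and overlapped for NDH, where sulfate replicate 1 was the highest array.

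Of the 10 pairs of complexes, 9 had gaps that overlapped between the groups and 1 did not. These pairs share complexes, so they are not independent. Of all single genes tested, 7.11% were separated upwards and 7.57% downwards. The NDH median minus the ATP synthase median, on the same relative scale, was 0.19, 0.09 and 0.10 on the sulfate arrays (SD 0.05) and -0.15, 0.00 and -0.11 on the thiosulfate arrays (SD 0.08), so every thiosulfate array lay below every sulfate array. Its mean lay 0.21 lower in thiosulfate. The NDH median minus the photosystem II median was 0.23, -0.11 and 0.15 on the sulfate arrays and -0.13, 0.05 and -0.28 on the thiosulfate arrays, so the groups overlapped. The medians of the log2 differences lay 0.20 lower in NDH, and between 0.10 and 0.35 lower with 1 array left out. The long ndh operon against the other 32 members gave 0.24, -0.04 and 0.12 in sulfate and -0.15, 0.04 and -0.26 in thiosulfate, again overlapping. psaC against the other photosystem I genes gave 0.23, 0.10 and -0.02 against -0.17, 0.15 and -0.26, which overlapped too. No test was made of these gaps, since the members were chosen with results known.

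**Figure D4:**
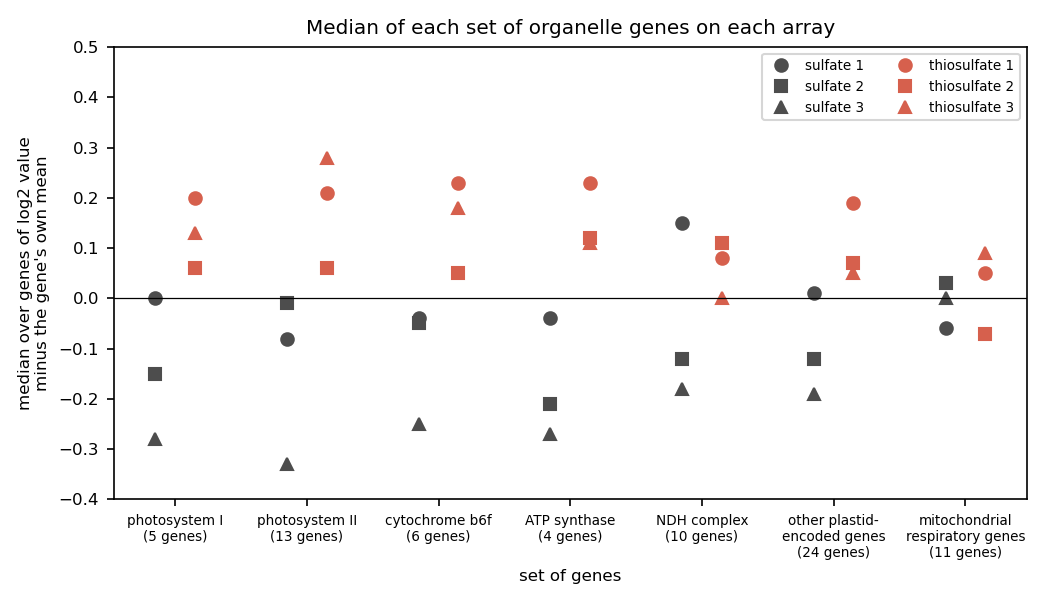
Median, over the genes of each set (x axis, number of genes in brackets), of the log2 value minus the gene's own mean over 6 arrays (y axis), 1 point per array; grey marks sulfate and red thiosulfate. The groups are separate for photosystem I, photosystem II, cytochrome b6f, the ATP synthase and the other plastid-encoded genes. They overlap for NDH and for the mitochondrial genes.

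The other organelle genes on the arrays give the frame for these values. The 24 other plastid-encoded genes, mostly for ribosomal proteins and the plastid polymerase, had a median difference of 0.20, with 23 higher, 1 lower (rpl32, -0.28, with every thiosulfate array below every sulfate array) and 10 separated upwards. rpoB, for a core subunit of the plastid polymerase, had a difference of 0.32 and accD, for a subunit of the acetyl-CoA carboxylase of fatty acid synthesis, 0.29. rpl33 (0.35) was the 1 gene among the 24 at an unadjusted limma p under 0.05, beside 10 of the 39 photosynthesis and NDH genes. Of all genes tested, 5.39% were higher at that threshold, and the count of 10 ranged from 0 to 22 over the other settings. Upward separation was seen in 10 of the 24, in 20 of the 39 and in 7.11% of all genes tested. The difference between the 24 and the 39 was not tested. Of the respiratory chain, 11 genes with the symbols used for the mitochondrial genome (nad, cox and atp1) had differences from -0.07 to 0.09, with a median of 0.04. None of the 11 was separated between the groups, and 0 had an unadjusted limma p under 0.05.

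Nucleus-encoded partners of the same complexes were named only in part: 15 of the 139 list entries for photosystem, electron carrier, ATP synthase, NDH and Calvin cycle proteins. Of these 15, 12 had a lower mean in thiosulfate and 3 a higher one. A lower mean was seen in 52.9% of all genes tested. It was seen in 64.0% of the dimmer 8274 and 41.7% of the brighter 8274, and the 15 hold genes of both parts. The median difference was -0.15, and 0 had an unadjusted limma p under 0.05. LHB1B2, a light-harvesting protein of photosystem II, had a difference of -0.36 (95% interval -0.94 to 0.21). PSBY, a small photosystem II protein, had -0.35 (-0.79 to 0.09). PSAN of photosystem I, on the lumen side, had -0.20 (-0.51 to 0.12) and was listed at 1.0 to 1.39. Of the 15, PSAN alone was separated, with every thiosulfate array below every sulfate array, against 7.57% of all genes tested. NdhL had -0.20 (-0.77 to 0.38) and NdhU -0.15 (-0.48 to 0.19), both subunits of the NDH complex. Among the Calvin cycle genes, SBPASE, sedoheptulose bisphosphatase, had -0.28 (-0.78 to 0.22), PRK, phosphoribulokinase, -0.09, and RCA, Rubisco activase, -0.09. PGRL1B, of cyclic electron flow, had 0.13, and ATPC1, the gamma subunit of the ATP synthase, 0.02. Their listed values lay mostly near the low end of the table.

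A list of nuclear factors for plastid transcription and RNA processing, which also holds assembly factors of photosystem II, had 9 of 77 entries named. Of the 9, 5 had a higher mean and 4 a lower one, with a median of 0.01, and 0 had an unadjusted limma p under 0.05. LPA1 and LPA2, among the 9, are assembly factors. In these 2 every thiosulfate array lay below every sulfate array, and 0 of the 9 were separated upwards. Downward separation was seen in 7.57% of all genes tested. OTP84, an editing factor for sites in ndhB, ndhF and psbZ, had a difference of -0.38 (95% interval -0.81 to 0.04), LPA2 -0.33, and OTP80, an editing factor for rpl23, 0.24. Of 28 list entries for greening regulators, synonyms included, 3 were named. They were CHLM and PORB of chlorophyll synthesis and HYH, a light-response transcription factor, at -0.01 to 0.01.

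Of 33 list entries for green tissue markers 6 were named, all with a lower mean in thiosulfate (-0.28 to -0.09). A lower mean was seen in 52.9% of all genes tested and 64.0% of the dimmer ones, where 4 of the 6 lie. PRK, RCA, SBPASE, LHCB4.1 and LHCB4.2 were also counted among the nucleus-encoded partners above, so this is not a separate result. Of the 6, 0 had an unadjusted limma p under 0.05. Their summed level, as log2, was 5.04 to 5.20 on the sulfate arrays and 4.85 to 5.23 on the thiosulfate arrays. The defining markers LHCB4.1 (2.35 to 3.69 in thiosulfate, 3.01 to 3.35 in sulfate) and RCA (3.58 to 3.77 and 3.71 to 3.80) overlapped between the groups. Of 34 root markers only the root hair expansins EXPA7 and EXPA18 were named. Their summed level was 3.19 to 3.93 in sulfate and 3.55 to 4.22 in thiosulfate. This sum was lowest on sulfate replicate 3 and highest on thiosulfate replicate 1, as was the median of the members. On sulfate replicate 1 the sum was 3.93, above thiosulfate replicates 2 and 3 (3.55 and 3.57). The members' median on sulfate replicate 1 lay below every thiosulfate array. The part of these markers in the members' result was not tested.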

How the data were processed

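The authors deposited log2 expression values for 38408 rows on 6 one-colour Affymetrix arrays of root RNA. RMA and Transcriptome Analysis Console 4.0 are named in the submitters' processing notes. Neither the labels nor the table header name an RMA variant, a genome build or a filter. Rows were named through the platform's probe table and a RefSeq gene table (TAIR10.1), which was used for names and gene order only. The 16548 genes with a row of their own were fitted with limma 3.58.1 in R 4.3.3 (group term, empirical Bayes, two-sided, Benjamini-Hochberg over all genes, threshold 0.05). The fit was checked on simulated data. Groups came from the sample titles. Members and lists were chosen with earlier results of these data known. Members named in full were all those of complexes with fewer than 8; otherwise the highest mean, the 3 largest differences in each direction, and operons separated on all arrays; of other lists, at most 3 by smallest p, plus further ones chosen after their values were seen. Operons were listed from textbook knowledge. Scanner files and batches were not analysed here. Plots used Python 3.11.15, pandas 2.3.3 and matplotlib 3.10.9.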

Additional observations from a re-analysis of the deposited data

Results flagged for a closer look

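The rows shared by 2 plastid genes lie outside the comparison of members. The row for atpB and atpE, the beta and epsilon subunits of the ATP synthase head, had a difference of 0.32. It read 8.24, 8.16 and 8.04 in sulfate and 8.53, 8.43 and 8.44 in thiosulfate. Every thiosulfate array lay above every sulfate array, as in 20 of the 39 members and 7.11% of all genes tested. The row for psbC and psbD, photosystem II proteins, read 8.07, 7.95 and 7.38 against 8.26, 8.01 and 8.33 (difference 0.40), with overlapping groups. The rows for ndhB, a gene with 2 copies, hold identical values of 8.61, 8.51 and 8.51 against 8.50, 8.52 and 8.30 (difference -0.10), also overlapping.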

How the results depend on the processing

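The count of members past an adjusted p of 0.05 was 0 in all 12 alternatives and all 6 fits with 1 array left out, with the smallest adjusted p per fit between 0.23 and 0.71. The count at an unadjusted p under 0.05 was 10 as reported (10.0% of all genes). It was 1 after a further quantile normalization (10.2%), 0 after median centring over all rows (11.3%) and 6 when every row was tested (7.40%). It was 22 with an intensity trend and robust prior (10.2%), and 0 to 11 with 1 array left out (7.17% to 10.6%). With the replicate number as a block it was 6 (10.4%). Deviations of same-numbered arrays correlated at 0.056, -0.0247 and -0.0315, so the numbers were not taken to pair arrays. The cause of these shifts was not tested. The median over members lay between 0.20 and 0.28 in the other alternatives and between 0.21 and 0.31 with 1 array left out, that of NDH between 0.02 and 0.11 and between 0.03 and 0.22. NDH minus photosystem II stayed between -0.23 and -0.19, and between -0.35 and -0.10 with 1 array left out. The count of 20 separated members, recomputed as an alternative chosen after seeing the data, was 16 after median centring (4.54% of all genes) and 20 to 26 with 1 array left out (10.9% to 13.1%, against 7.11% with all 6, since fewer arrays separate more easily). Directions of named members near 0 turned: psaC to -0.022 (quantile) and -0.033 (without sulfate replicate 3), ndhD to 0.092 and ndhF to 0.079 (without sulfate replicate 1) and to 0.045 and 0.014 (without thiosulfate replicate 3), and psbN to 0.00051 (without sulfate replicate 2) and 0.11 (without thiosulfate replicate 1). With 1 array left out ndhD ranged from -0.091 to 0.092, ndhF from -0.16 to 0.079 and psbN from -0.14 to 0.11. All members passed both filters on dim genes.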
